A study of Mus musculus with 8 samples.

Results

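The genes described here are the sensors of the unfolded protein response (UPR), the Xbp1 message and the enzymes that process messages and precursors. The 9 genes are Ern1, Ern2, Xbp1, Rtcb, Atf6, Atf6b, Mbtps1, Mbtps2 and Eif2ak3, called sensors and processors below for short. They were chosen by name, as 9 of the 55414 gene identifiers in the count table, and all 9 passed the filter on low counts. RNA was sequenced from Paneth cells that had been sorted by FACS out of the small intestine of C57BL/6J mice. A control group of 4 mice ate standard chow and a zinc depleted group of 4 mice ate chow depleted of zinc, each for 7 weeks. Both groups shared the strain, tissue and sort, and the mice carried no named transgene or deletion. The sample labels give no age.

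The endoplasmic reticulum (ER) folds secreted proteins, and the UPR adjusts its capacity when unfolded protein builds up. IRE1 cuts the Xbp1 mRNA, whose ends are rejoined into a message for an active transcription factor. ATF6 travels to the Golgi and is released from the membrane by the proteases S1P and S2P, and PERK slows translation by phosphorylating eIF2α. Paneth cells secrete large amounts of antimicrobial protein, and loss of Xbp1 from the mouse intestinal epithelium is known to deplete them.

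Total counts ranged from 8557690 to 12648005 per mouse, and a gene with 3 counts would stand at 0.237 to 0.351 CPM, counts scaled to a library of 1000000. All 8 Paneth cell markers examined were present, together taking 462695 to 610179 CPM per mouse. Of 8 stromal and vessel markers, 5 were at 0 in all mice, and the sum did not exceed 0.592 CPM. Goblet cell markers, which include Ern2, summed to 7828 to 10766 CPM in control mice and 7439 to 12372 CPM in zinc depleted mice. Stem and dividing cell markers summed to 1354 to 2173 CPM in control mice and 517 to 1089 CPM in zinc depleted mice, without overlap. Most of this sum was Olfm4, at 1137 to 1780 CPM in control mice and 374 to 893 CPM in zinc depleted mice. Enteroendocrine markers summed to 33.3 to 88.0 CPM in control mice and 17.0 to 29.9 CPM in zinc depleted mice, again without overlap. These sums are by library size alone, and Ghrl alone reached 49.0 CPM in a control mouse. When scaled by the trimmed mean of M-values (TMM), the diets overlapped for each of the 3 enteroendocrine markers tested. On that scale the diets did not overlap for 3 of the 8 stem and dividing cell markers, against 6.09% of genes tested. The part of either list in the results below was not tested. Control replicate 1 stood apart, with a TMM scaling factor of 1.57 against 0.719 to 1.16 in the other mice. Fold changes, ratios and list medians that moved by over 1.5 times without it are given both ways.

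The message that IRE1 cuts is shown because the 26 bases it removes decide which XBP1 protein is made. In GRCm39 these bases lie at chr11:5474279-5474304 on the plus strand, in coding exon 4 of 5 of the annotated transcript used here. The stretch below spans chr11:5474259-5474324, with the removed bases in capitals.
Xbp1: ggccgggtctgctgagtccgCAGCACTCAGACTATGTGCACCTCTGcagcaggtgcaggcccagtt
Each cut falls in a heptamer of the pattern CNGCAGN, and both heptamers can be read in the stretch at the borders of the capitals. The reading frame holds 267 codons with the 26 bases and 371 codons without them. The heptamer alone occurs in 94.1% of 21580 canonical coding mRNAs, and 2 heptamers at this spacing in 1.61%. The gene counts analysed here add both forms of Xbp1 together, so they give its amount and not its splicing.

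No difference between the diets was called for any UPR sensor or processor. Of the 9 genes, 0 were called by edgeR's quasi-likelihood test at an adjusted p under 0.05, where 0.403% of the 10911 genes tested were called. At an unadjusted p under 0.05 the count was also 0, against 10.5% of all genes, and DESeq2 called 0 as well. The values of the diets overlapped for all 9 genes, whereas they did not overlap for 6.09% of genes tested. Log2 fold changes of zinc depleted over control lay above 0 for 6 genes and below 0 for 3, with a median of 0.05 (0.09 without control replicate 1) against -0.01 for all genes. The 95% intervals ran from -0.43 to 0.59 on the log2 scale over the 9 genes. They differed in width by gene, from 0.773 to 1.14 fold for Rtcb to 0.825 to 1.5 fold for Mbtps2. A change inside a gene's own interval was not excluded by these mice. The intervals are not adjusted for the number of genes tested and are not limits of detection. In bulk RNA, fewer cells of a type and less RNA per cell cannot be told apart.

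**Figure D1:**
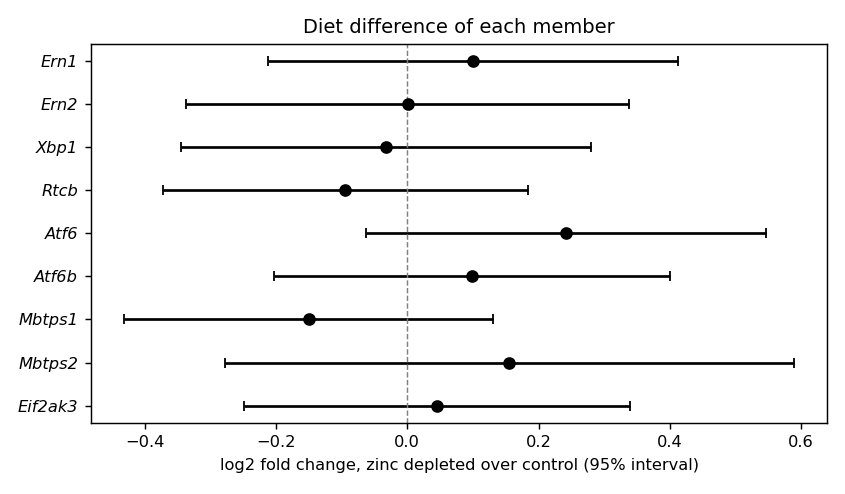
Log2 fold change (x axis, zinc depleted over control, 4 mice a diet) of each of the 9 genes (y axis), with bars for the 95% interval. Every interval includes 0, and the widest reach is that of Mbtps2, up to 0.59.

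Ern1 encodes IRE1α, the kinase and endoribonuclease found in most tissues (chromosome 11, 106283818 to 106378686, minus strand, GRCm39). Its TMM-scaled CPM was 90.1, 84.7, 65.1 and 60.7 in control mice 1 to 4 and 80.3, 76.9, 82.9 and 82.5 in zinc depleted mice 1 to 4. The control mice lay on both sides of all 4 zinc depleted mice. The mean was 75.1 ± 14.5 (SD, n = 4) in control mice and 80.7 ± 2.76 (SD, n = 4) in zinc depleted mice. The log2 fold change was 0.10 (SE 0.149, edgeR adjusted p = 0.880), and it was 0.20 without control replicate 1 and 0.01 without control replicate 4.

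Ern2 encodes IRE1β, the form found in mucosal epithelium, and goblet cells are known to express it (chromosome 7, 121769116 to 121785468, minus strand). Control mice 1 to 4 had 113, 78.9, 67.4 and 73.2 TMM-scaled CPM, and zinc depleted mice 1 to 4 had 82.5, 88.0, 77.3 and 86.1. Control replicate 1 was highest, and the zinc depleted mice lay inside the control range. The means were 83.3 ± 20.7 and 83.5 ± 4.73 (SD, n = 4 each), a log2 fold change of 0.00 (SE 0.161, edgeR adjusted p = 0.999). Without control replicate 1 it was 0.19. Coding sequences of Ern1 and Ern2 matched at 64.2% of aligned bases and shared 0 windows of 20 identical bases, so their reads can be told apart.

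Within a mouse, the ratio of Ern2 to Ern1 counts was 1.26, 0.932, 1.04 and 1.21 in control mice 1 to 4. It was 1.03, 1.14, 0.932 and 1.04 in zinc depleted mice 1 to 4. Both genes were thus counted about equally in every mouse, on either diet. The log2 ratio differed by -0.09 between diets (SE 0.117, exact two-sided permutation p = 0.486, adjusted over 3 ratios 0.486, n = 4 each), and by -0.02 without control replicate 1. The smallest p this design allows is 0.0286. Per base of summed exon length, Ern2 was 3.59 times Ern1 and higher in 8 of 8 mice. With the length of the canonical transcript it was 2.56 times Ern1.

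Xbp1 (chromosome 11, 5470606 to 5483027, plus strand) had the highest level of the 9 genes. In control mice 1 to 4 it reached 212, 222, 257 and 261 TMM-scaled CPM, and in zinc depleted mice 1 to 4 it reached 228, 237, 229 and 238. The zinc depleted mice fell within the range of the control mice. The means were 238 ± 24.8 and 233 ± 5.36 (SD, n = 4 each), and the log2 fold change was -0.03 (SE 0.149, edgeR adjusted p = 0.966). It was -0.09 without control replicate 1. In GENCODE M39, 22.0% of its exon bases lie opposite exons of Ccdc117, which had at most 294 counts. The strand setting of the counting is not given in the sources used here.

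Rtcb encodes the RNA ligase that rejoins the cut Xbp1 message and also joins tRNA exons (chromosome 10, 85774488 to 85793700, minus strand). Its values were 47.3, 52.7, 53.5 and 46.4 TMM-scaled CPM in control mice 1 to 4 and 52.1, 42.6, 46.2 and 46.2 in zinc depleted mice 1 to 4. Mice of both diets were intermixed. The log2 fold change was -0.09 (SE 0.132, edgeR adjusted p = 0.869).

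**Figure D2:**
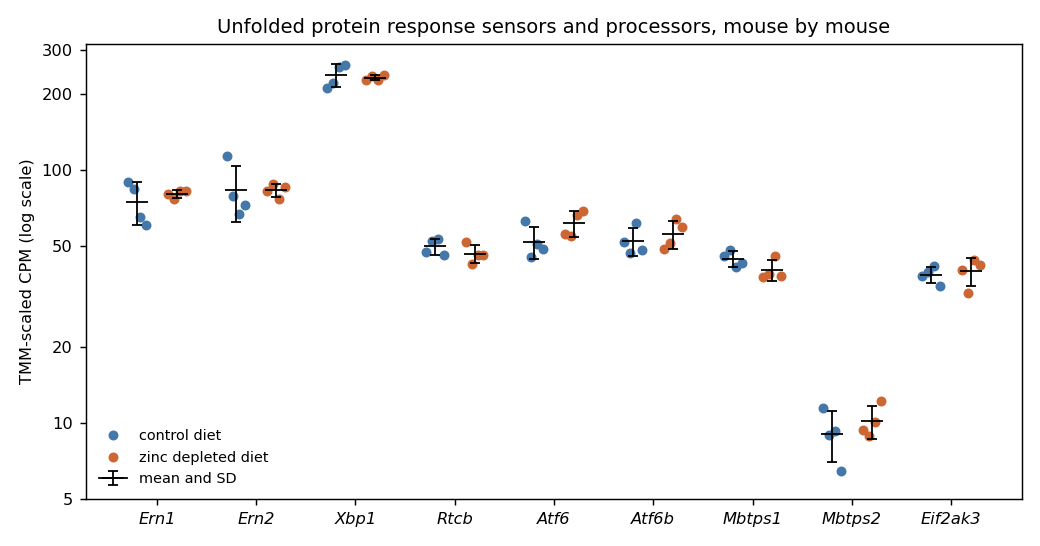
TMM-scaled CPM (y axis, log scale) of the 9 genes (x axis), with 1 point a mouse, control diet on the left and zinc depleted diet on the right of each gene, and black marks for the mean and SD of 4 mice. The diets overlap for every gene, and Xbp1 lies highest and Mbtps2 lowest.

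Atf6 encodes the ATF6α sensor (chromosome 1, 170532026 to 170696208, minus strand) and had the largest fold change of the 9 genes. Control mice 1 to 4 had 63.0, 45.3, 51.1 and 49.0 TMM-scaled CPM, and zinc depleted mice 1 to 4 had 56.0, 54.9, 66.5 and 69.1. All zinc depleted mice lay above control mice 2, 3 and 4, and control replicate 1 lay among them. The means were 52.1 ± 7.64 and 61.6 ± 7.22 (SD, n = 4 each), a log2 fold change of 0.24 (SE 0.145, edgeR adjusted p = 0.604). Without control replicate 1 it was 0.35, with an unadjusted p of 0.024 and an adjusted p of 0.486.

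Atf6b encodes the related sensor ATF6β (chromosome 17, 34866091 to 34874056, plus strand). It stood at 51.9, 47.2, 62.0 and 48.4 TMM-scaled CPM in control mice 1 to 4 and at 48.8, 51.4, 64.0 and 59.9 in zinc depleted mice 1 to 4. The ranges largely coincided, and the log2 fold change was 0.10 (SE 0.144, edgeR adjusted p = 0.878). The ratio of Atf6 to Atf6b counts was 1.21, 0.960, 0.823 and 1.01 in control mice 1 to 4 and 1.15, 1.07, 1.04 and 1.15 in zinc depleted mice 1 to 4. For this ratio control replicate 1 stood above the zinc depleted mice, while the other control mice lay below them. The log2 ratio differed by 0.15 (SE 0.121, exact two-sided permutation p = 0.286, adjusted over 3 ratios 0.429, n = 4 each). Without control replicate 1 the difference was 0.25, with an exact permutation p of 0.0286 and an adjusted p of 0.0857. That p is the smallest possible with a control mouse left out, and the mouse left out was the only control above the zinc depleted mice.

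Mbtps1 encodes S1P, the protease that cuts ATF6 first (chromosome 8, 120234415 to 120285605, minus strand). Its values were 45.8, 48.4, 41.4 and 42.8 TMM-scaled CPM in control mice 1 to 4 and 37.8, 39.03, 45.9 and 38.2 in zinc depleted mice 1 to 4. In the zinc depleted group 3 mice lay below all control mice, and zinc depleted replicate 3 lay among the control mice. The log2 fold change was -0.15 (SE 0.134, edgeR adjusted p = 0.762).

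Mbtps2 encodes S2P, the zinc metalloprotease that makes the second cut (chromosome X, 156318367 to 156381711, minus strand). It had 61 to 213 counts per mouse, the fewest of the 9 genes. Its TMM-scaled CPM was 11.5, 8.93, 9.33 and 6.46 in control mice 1 to 4 and 9.39, 8.84, 10.05 and 12.3 in zinc depleted mice 1 to 4. The groups overlapped, and the log2 fold change was 0.16 (SE 0.206, edgeR adjusted p = 0.858). It was 0.30 without control replicate 1 and 0.03 without control replicate 4. In GENCODE M39, 23.4% of the exon bases of Mbtps2 are shared with Yy2 on the same strand. Yy2 had 0 counts, and how the counting treated shared bases is not given in the sources used here. Counts of Mbtps1 were 4.998 times those of Mbtps2 in control mice and 3.97 times in zinc depleted mice, as geometric means. That log2 ratio differed by -0.33 (SE 0.203, exact two-sided permutation p = 0.229, adjusted over 3 ratios 0.429, n = 4 each).

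Eif2ak3 encodes PERK (chromosome 6, 70821461 to 70882235, plus strand). It measured 38.1, 39.7, 41.7 and 34.9 TMM-scaled CPM in control mice 1 to 4 and 40.5, 32.6, 44.0 and 42.1 in zinc depleted mice 1 to 4. The lowest and the highest value both belonged to zinc depleted mice. The log2 fold change was 0.05 (SE 0.140, edgeR adjusted p = 0.946).

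Levels of different genes were compared per length, as TPM, transcripts scaled to 1000000, by summed exon length. Means over 8 mice were 28.7 ± 8.32 TPM for Xbp1, 24.6 ± 13.6 for Ern2, 13.9 ± 4.80 for Atf6b and 10.9 ± 3.90 for Rtcb (SD). Next came Ern1 at 6.77 ± 3.10 TPM, Eif2ak3 at 5.33 ± 1.91, Atf6 at 5.02 ± 2.13, Mbtps1 at 3.12 ± 1.32 and Mbtps2 at 0.687 ± 0.328 (SD, 8 mice). Xbp1 thus stood at the 97.3 percentile of the genes tested and Mbtps2 at the 28.4 percentile. Of the 8 neighbouring pairs in this order, 6 differed by an exact two-sided sign flip test over mice with an adjusted p under 0.05. The exceptions were Xbp1 over Ern2, higher in 7 of 8 mice (exact p = 0.0469, adjusted 0.0536), and Eif2ak3 over Atf6, higher in 5 of 8 mice (exact p = 0.242, adjusted 0.242). Control replicate 1 had the highest TPM for all 9 genes, on a scale without TMM factors. As TMM-scaled CPM it was highest for 2 of the 9. The choice of length changed these levels. With the length of the canonical transcript, Xbp1 stood at 87.4 ± 24.5 TPM, Ern2 at 21.9 ± 11.8 and Mbtps2 at 2.81 ± 1.31 (SD, 8 mice). Xbp1 was then 4.2 times Ern2 and higher in 8 of 8 mice (exact sign flip p = 0.00781, adjusted 0.0208). Rtcb moved above Atf6b and Mbtps1 above Eif2ak3 and Atf6, and 4 of the 8 neighbouring pairs in that order had an adjusted p under 0.05.

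**Figure D3:**
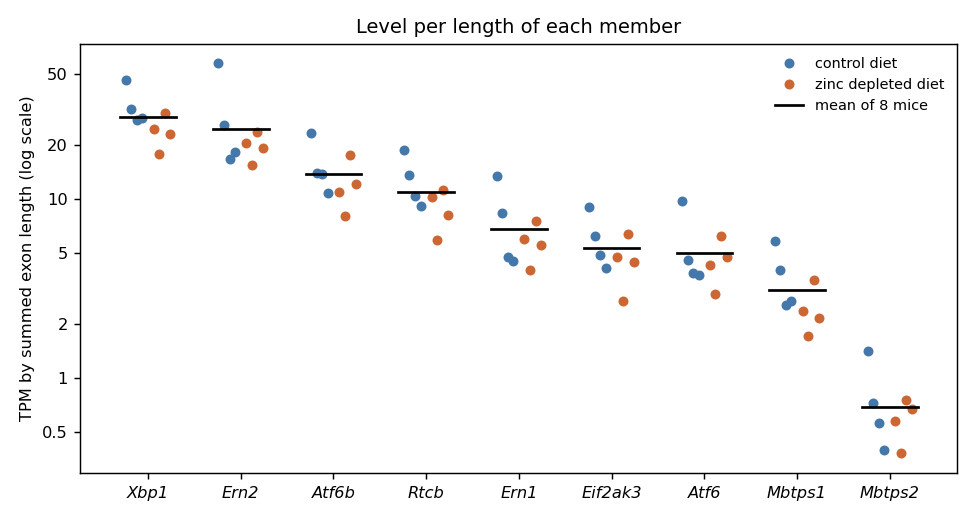
TPM by summed exon length (y axis, log scale) of the 9 genes (x axis, ordered by mean), with 1 point a mouse coloured by diet and a line at the mean of 8 mice. Means fall from 28.7 TPM for Xbp1 to 0.687 TPM for Mbtps2, and the top point of each gene is control replicate 1. TPM carries no TMM scaling, under which that mouse is highest for 2 of the 9 genes.

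Other genes of each arm were described by lists, beside the 0.403% of all genes tested that were called and the 50.7% that lay below 0. Of 14 partners of the IRE1 arm, 0 were called, 10 lay above 0 and the median log2 fold change was 0.08 (0.02 without control replicate 1 or zinc depleted replicate 2, and 0.03 without control replicate 2 or 3). Agr2, a protein disulphide isomerase of mucous cells, had a log2 fold change of 0.55 (edgeR adjusted p = 0.521). Tmbim6, an ER membrane protein that restrains IRE1, had 0.01 (edgeR adjusted p = 0.988). Of 12 partners of the PERK arm, 0 were called, 8 lay above 0 and the median was 0.10 (0.0034 without zinc depleted replicate 4, 0.03 without control replicate 3 and 0.04 without zinc depleted replicate 1). Atf4, the transcription factor translated when eIF2α is phosphorylated, had a log2 fold change of 0.06 (edgeR adjusted p = 0.928), and Ddit3, which encodes CHOP, had 0.45 (edgeR adjusted p = 0.755). Of 15 substrates and partners of S1P and S2P, 0 were called, 10 lay above 0 and the median was 0.04 (0.02 without zinc depleted replicate 1). Scap, the escort of the sterol regulators, had -0.20 (edgeR adjusted p = 0.672) and was the 1 gene of 15 whose diets did not overlap. Fam98a was such a gene among the 14 IRE1 partners, against 6.09% of all genes tested. With library size alone the medians of the IRE1, PERK and protease lists were -0.30, -0.28 and -0.30, where that of all genes was -0.37.

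The list of 28 target genes of ATF6 and XBP1 had 0 genes called and a lowest edgeR adjusted p of 0.503, with 27 genes above 0 and a median log2 fold change of 0.21 that turned to -0.10 with library size alone. The median of all genes tested was -0.01, and -0.37 with library size alone. Hspa5, which encodes the ER chaperone BiP, measured 423, 478, 686 and 514 TMM-scaled CPM in control mice 1 to 4 and 591, 369, 658 and 1302 in zinc depleted mice 1 to 4. Creld2, an ER stress-induced protein, measured 20.4, 33.0, 47.1 and 31.1 in control mice and 38.4, 30.8, 50.3 and 103 in zinc depleted mice. Both genes were highest in zinc depleted replicate 4 and overlapped between diets in the other mice. On the TMM scale, that mouse held the highest value of 26 of the 28 target genes, and of 2 of the 9 sensors and processors. It did so for 2035 of the 10837 genes tested that had a count in every mouse. The sum of goblet cell markers was also highest in that mouse, at 12372 CPM, of which Spink4 made 7752 CPM. By library size alone, Muc2, Clca1, Spink4 and Agr2 were highest there, and the other goblet cell markers were highest in other mice. Stem and dividing cell markers were lowest in zinc depleted replicate 4, at 517 CPM. The part of either list was not tested. Without that mouse the median log2 fold change of the target genes was 0.02, and without control replicate 1 it was 0.11. It was 0.34 without control replicate 3 and 0.31 without zinc depleted replicate 2. By library size alone, 15 of the 28 target genes were highest in that mouse and 10 in control replicate 1.

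**Figure D4:**
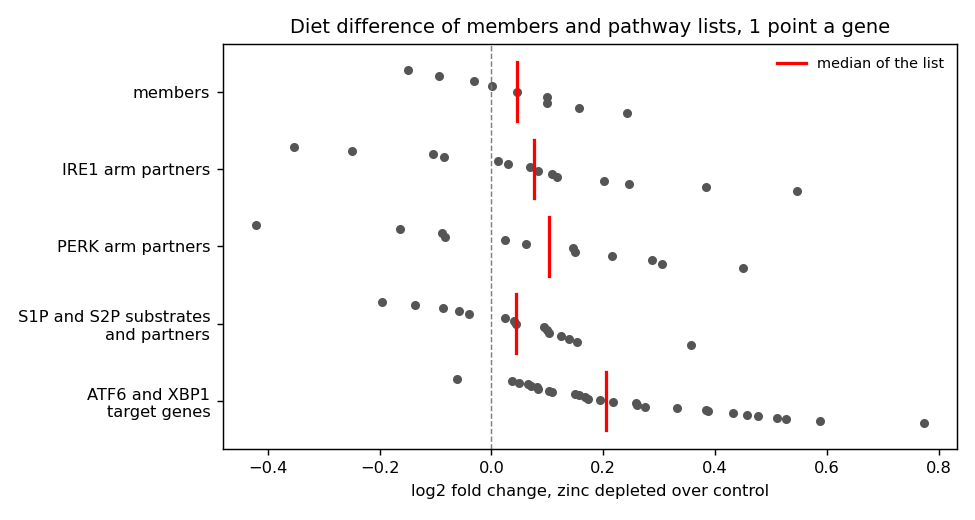
Log2 fold change (x axis, zinc depleted over control) with 1 point a gene for the 9 sensors and processors and for 4 lists of pathway genes (y axis), with a red line at the median of each. The medians are 0.05, 0.08, 0.10, 0.04 and 0.21 from top to bottom, and no gene shown was called.

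The spread between mice was described for the sensors and processors and for the target genes. The highest mouse exceeded the lowest by 1.23 to 1.90 times for the 9 genes (median 1.35) and by 1.38 to 5.07 times for the 28 target genes (median 2.12). The SD of log2 values within a diet had a median of 0.180 for the 9 genes and 0.358 for the target genes. It was 0.240 for the 5689 genes tested whose mean lay between those of Mbtps2 (9.59 TMM-scaled CPM) and Xbp1 (235). That range is wide, and these genes were not matched to each of the 9 by level. Of the 9 genes, 7 lay below 0.240. This contrast held on the TMM scale only. With library size alone, the highest mouse exceeded the lowest by 1.96 to 2.95 times for the 9 genes (median 2.55) and by 1.65 to 4.15 times for the target genes (median 2.40). The median SD within a diet was then 0.400 for the 9 genes, 0.408 for the target genes and 0.382 for the same 5689 genes. That comparison was added after the data were seen, and all of these are descriptions with no test.

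Promoters were searched on both strands, in windows of 300 bases around the start of each gene from RefSeq (GRCm38.p6), which held 6 of the 9 genes and 24 of the target genes. Ern2, Rtcb and Atf6 were the genes without an entry. The ER stress element (CCAAT and CCACG with 9 bases between them) was found in 0.119% of 32851 promoters, in 0 of the 6 and in 9 of the 24 target genes, Hspa5 and Creld2 among them. The UPR element TGACGTGG was found in 0.676% of promoters, in 0 of the 6 and in 1 of the 24. A match is a description of letters and not a binding site.

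Across the 8 mice, Xbp1 was lower where Ern1 was higher on the TMM scale, a relation that turned to the opposite sign with library size alone. Pearson's r was -0.95 (exact permutation p = 0.00057, adjusted over 4 relations 0.00228) and Spearman's rho was -0.881 (exact permutation p = 0.00724, adjusted 0.0290). Without control replicates 3 and 4, the mice farthest from the median of Xbp1, r was -0.842. With library size alone r was 0.788 (exact permutation p = 0.0201, adjusted 0.0368). For Xbp1 and Ern2, r was -0.757 (exact permutation p = 0.0260, adjusted 0.0520) and rho -0.595 (exact permutation p = 0.132, adjusted 0.265), with r = -0.567 without the same mice and 0.805 with library size alone. For Xbp1 and Atf6, r was -0.328 (exact permutation p = 0.423, adjusted 0.544) and rho -0.143 (exact permutation p = 0.752, adjusted 0.752), with r = 0.204 without those mice and 0.770 with library size alone. For Xbp1 and Hspa5, r was 0.260 (exact permutation p = 0.544, adjusted 0.544) and rho 0.452 (exact permutation p = 0.267, adjusted 0.357), with r = 0.491 without those mice and 0.373 with library size alone. The sign of the relation between Xbp1 and Ern1 therefore depended on the scaling, and no direction is given for it.

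**Figure D5:**
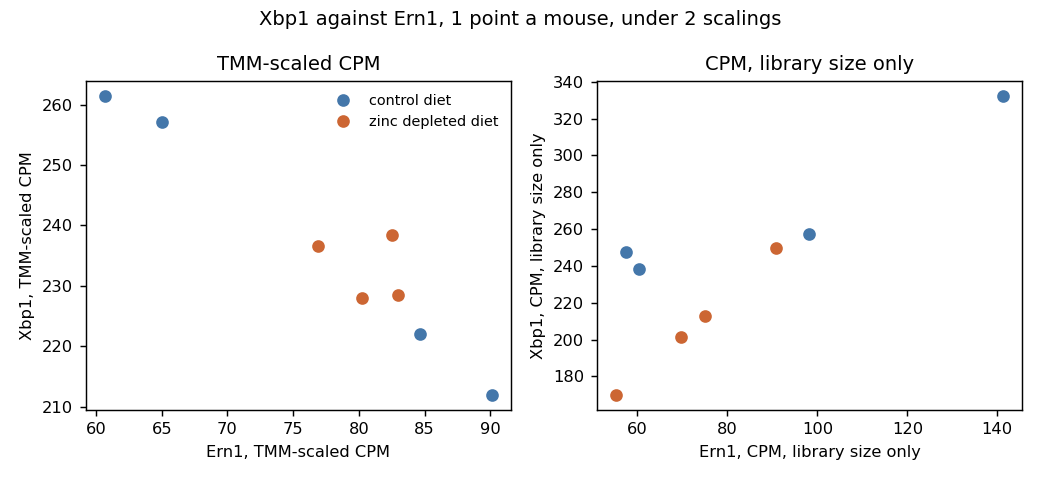
Xbp1 (y axis) against Ern1 (x axis) with 1 point a mouse coloured by diet, as TMM-scaled CPM on the left and as CPM by library size alone on the right. The points fall on the left (r = -0.95) and rise on the right (r = 0.788).

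The search for alike genes covered 5700 genes with a mean of at least 10 TMM-scaled CPM. The genes most like Ern1, Ern2, Xbp1, Atf6 and Eif2ak3 over the 8 mice were found by Pearson's r. They were Zfr (0.961) and Ap3d1 (0.953) for Ern1, and Brd2 (0.961) and Vegfa (0.946) for Ern2. For Xbp1 they were Tbrg1 (0.952) and Lamtor4 (0.941), and for Atf6 they were Slc35a2 (0.936) and Rundc1 (0.933). For Eif2ak3 they were Vps35l (0.973) and Alg3 (0.971). These are the highest of many values over 8 mice and are given as a description.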

How the data were processed

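Messenger RNA from sorted Paneth cells was sequenced with a stranded kit. The deposited table holds raw counts per gene made by the authors. The submitters' processing notes name FastQC 0.12.0, STAR 2.7.0a, DESeq2 and mm39, while the counting program and strand setting were not given in those sources. Identifiers were named from GENCODE M39 (54749 of 55414 found).

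Counts were tested with edgeR 4.0.16 (R 4.3.3): filterByExpr, TMM scaling, the robust quasi-likelihood test over all 10911 genes passing the filter, and Benjamini-Hochberg adjustment, with calls at an adjusted p under 0.05. DESeq2 1.42.0 was an alternative, as were other scalings, no filter, a replicate block and each mouse left out. Ratios used counts + 0.5 and exact permutation over mice, levels used log2(TPM + 0.1) and correlations used log2(TMM-scaled CPM + 1), in Python 3.11.15 with scipy 1.17.1. The text names the 9 genes, genes of the lists and the 2 genes most like each of 5 of the 9 genes. The fit was tested on simulated data with 200 of 10911 genes changed. It recovered 76% of 2-fold and 98% of 4-fold changes, and 5.43% of its calls were false. Changes as small as those of the 9 genes were not simulated. No mouse pair of a diet agreed within sampling noise (chi-square per degree of freedom 5.43 to 55.1). The genes and lists were chosen with earlier results of these data known.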

Additional observations from a re-analysis of the deposited data

Results flagged for a closer look

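Among the groups of 4 values examined for a mouse far from the others (34 groups: the 9 genes, 3 ratios and 5 summed lists in each diet), 1 stood out by Dixon's criterion. Mbtps1 in zinc depleted replicate 3 measured 45.9 TMM-scaled CPM, and its gap to the nearest zinc depleted mouse was 0.844 of the range of the group, above the critical value for 4 samples. Chance alone marks about 1 in 20 such groups. In the same mouse, tuft cell markers summed to 425 CPM, against 15.4 CPM in the lowest mouse of its diet, and their part in this value was not tested.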

How the results depend on the processing

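None of the 9 genes was called under any of 15 alternatives each (lowest adjusted p 0.369). With library size alone the median log2 fold change of all genes moved from -0.01 to -0.37, and 6 genes changed sign: Ern1 -0.30, Ern2 -0.43, Atf6 -0.14, Atf6b -0.24, Mbtps2 -0.25 and Eif2ak3 -0.29. Ern2 stood at -0.0020 without the filter. Leaving out each mouse in turn gave ranges of -0.0846 to 0.19 for Ern2, -0.0861 to 0.0174 for Xbp1, -0.0012 to 0.13 for Eif2ak3, 0.01 to 0.20 for Ern1, 0.03 to 0.30 for Mbtps2, 0.03 to 0.19 for Atf6b, 0.18 to 0.35 for Atf6, -0.15 to -0.05 for Rtcb and -0.21 to -0.10 for Mbtps1. Genes called over the whole table were 44, against 11 with library size alone, 25 without the robust option, 251 without the filter, 134 with DESeq2 and 8 to 36 with a mouse left out, of which 8 without control replicate 2 or 4, 26 without zinc depleted replicate 1, 13 without zinc depleted replicate 2 and 17 without zinc depleted replicate 4. The split of higher to lower calls was 16 to 28, but 14 to 11 without the robust option. It was 17 to 16 without control replicate 1 and 5 to 3 without control replicate 2 or 4. Without zinc depleted replicates 2, 3 and 4 in turn it was 9 to 4, 27 to 9 and 12 to 5. Lower calls stayed more numerous without control replicate 3 (11 to 20), without zinc depleted replicate 1 (9 to 17) and under the other alternatives. The cause was not tested. With library size alone, r of Xbp1 was 0.788 with Ern1, 0.805 with Ern2 and 0.770 with Atf6. On deviations from the mean of each diet, r with Ern2 was -0.755 (permutation adjusted p = 0.0496). That permutation ran over all 8 mice and not within diets, so its p is approximate. The labels number replicates alike in both diets, but deviations of same-numbered mice correlated at 0.114, 0.0925, 0.00489 and 0.0926, and control replicate 3 correlated best with zinc depleted replicate 4 (0.183), so the numbers were not taken as pairs. With a replicate block, 53 genes and 0 of the 9 were called. With 61 to 213 counts, Mbtps2 was the least precisely measured of the 9 genes.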
